A study of Drosophila melanogaster and Drosophila arizonae and Drosophila mojavensis with 18 samples.

Results

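The response of *D*. *arizonae* larvae to the most contrasting diets was taken from 4 of the 18 libraries of an RNA-Seq study of 3 *Drosophila* species. They were 2 libraries of larvae on the low-protein/high-sugar diet (LPHS) and 2 of larvae on the high-protein/low-sugar diet (HPLS), paired by the replicate number (S1 or S2) that the libraries carry. Larvae of the third instar had spent 24 h on the diet and were extracted whole. Yeast was the source of protein and sucrose the source of added sugar in diets of equal calories, which also held cornmeal and agar. A diet with equal parts of protein and sugar (EPS) had 2 more libraries, which entered the same fit.

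All larvae were offspring of isofemale stocks kept on banana-opuntia food before the experiments. Eggs were collected from adults in yeasted chambers, and the embryos grew into larvae before the transfer to the diet. The study used more than 1 isofemale strain per species, but no source used here says whether the replicate number marks the strain. For a difference between S1 and S2, strain, culture and library batch therefore cannot be told apart. Nothing says that the 2 replicates of a diet came from separate cultures, so p-values measure the spread between these libraries, which may be technical. In the main fit this is the spread left after diet and replicate number.

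*Drosophila* larvae take amino acids mainly from the yeast they eat and energy from sugar, and the fat body, an organ comparable to liver and adipose tissue, stores the surplus as fat and glycogen. Insulin and TOR signaling, described mainly in *D*. *melanogaster*, tie growth to the supply of sugar and amino acids, and the midgut adjusts its digestive enzymes to the food. In RNA from whole larvae, fewer cells of a type and less RNA per cell cannot be told apart. The deposited identifiers of *D*. *arizonae* genes are assembly numbers with no gene name beside them, so no pathway, organ or marker gene could be looked up. The genes are therefore described by level, change and course over the diets.

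The deposited table held 11060 genes, of which 132 were at 0 in all 6 *D*. *arizonae* libraries and 9696 (87.7%) had enough signal to be tested. The tested genes took between 99.948% and 99.964% of each library's total. The LPHS libraries held 11260972 and 11775547 fragments in genes (S1 and S2), against 13272135 and 10884810 in the HPLS libraries. The EPS libraries held 10860282 and 9156032. Levels below are normalized counts, which are the deposited values scaled to a common library size, and changes are log2 ratios of LPHS over HPLS on the level plus 1.

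Larvae on LPHS differed from larvae on HPLS in 78 genes, 0.804% of those tested. Expression was higher in LPHS for 32 genes (0.33%) and lower in LPHS for 46 (0.474%). The falls were larger than the rises and came from more abundant genes by their medians, with a median change of -1.72 against 1.51 and a median level of 805 against 517. These genes were called by limma with the replicate number as a block, where the p adjusted over all genes tested by the Benjamini-Hochberg method did not exceed 0.05. The last gene inside the threshold had an adjusted p of 0.0496 and the first outside it 0.0503. At an unadjusted p under 0.05 there were 1721 genes (17.7%), of which 824 had a positive change and 897 a negative one.

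The count rests on the test, on the pairing and on single libraries. With the block, edgeR's quasi-likelihood test called 121 genes and DESeq2 388, each including all 78, and limma on the HPLS and LPHS libraries alone called 134, including 72 of them. Without the block limma called 3 genes (0.0309%), all lower in LPHS, and 776 had an unadjusted p under 0.05. Leaving out LPHS S1 left 2 calls, 1 of them among the 78, and leaving out LPHS S2 left 0, with 1659 genes at an unadjusted p under 0.05. Leaving out HPLS S1 gave 165 calls, 60 of them among the 78, and leaving out HPLS S2 gave 54, with 29 of the 78. Leaving out EPS S1 gave 147 calls, with 75 of the 78, and leaving out EPS S2 gave 79, with 59 of them.

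**Figure D1:**
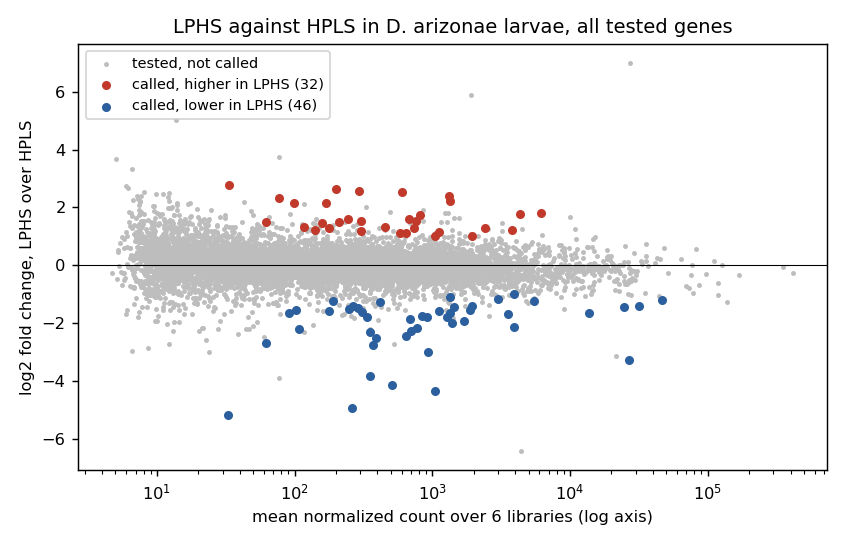
Change between LPHS and HPLS (log2, vertical axis) against the mean level over the 6 *D*. *arizonae* libraries (normalized count, log axis), with 1 point per tested gene. Red points are the 32 genes called higher in LPHS, blue points the 46 called lower, and grey points the tested genes not called, some of which lie farther from 0 than any called gene.

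Among genes called higher in LPHS, XLOC_010143 had the largest change in the main fit. Its normalized counts were 34.3 and 87.3 in LPHS larvae (S1 and S2), against 5.27 and 9.61 in HPLS larvae. The groups did not overlap, although the gene was scarce, with 36 and 102 fragments in LPHS and 6 and 9 in HPLS. The mean was 60.8 ± 37.5 in LPHS and 7.44 ± 3.07 in HPLS (SD, n = 2 each). The change was 2.77 (SE 0.36, adjusted p = 0.0358 by limma), made of 2.49 in the S1 pair and 3.06 in the S2 pair. With a pseudocount of 5 it was 2.30, below the 2.56 of XLOC_003056 at that setting. Without the block the adjusted p was 0.451, and leaving out LPHS S1, LPHS S2 or HPLS S2 also ended the call (adjusted p = 0.164, 0.133 and 0.0725).

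XLOC_003056 had the next largest change among the rises, with normalized counts of 589.2 and 216.4 in LPHS and 97.5 and 32.0 in HPLS. Both LPHS libraries lay above both HPLS libraries, and the S1 library was the higher one on each diet. The mean was 402.8 ± 263.6 in LPHS and 64.8 ± 46.3 in HPLS (SD, n = 2 each), so the spread within a diet was wide beside the spread of the 2 pairs. The change was 2.65 (SE 0.28, adjusted p = 0.0214 by limma), with 2.58 in the S1 pair and 2.72 in the S2 pair. The call was lost without the block (adjusted p = 0.423), without LPHS S1 (0.145) and without LPHS S2 (0.0761).

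XLOC_001819 was expressed at 16.2 and 14.5 normalized counts in LPHS larvae, against 683.7 and 364.1 in HPLS larvae. The LPHS libraries were close to each other, and the HPLS libraries were far above them and apart. The mean was 15.4 ± 1.16 in LPHS and 523.9 ± 225.9 in HPLS (SD, n = 2 each). The gene fell by 4.94 on the log2 scale (SE 0.62, adjusted p = 0.0357 by limma), with -5.32 in the S1 pair and -4.55 in the S2 pair. The adjusted p was 0.345 without the block, 0.162 without LPHS S1, 0.0651 without LPHS S2 and 0.0652 without HPLS S2, all above the threshold.

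XLOC_004227 had 89.5 and 134.3 normalized counts in LPHS and 1836 and 2778 in HPLS. Every HPLS library was far above every LPHS library, and S2 was the higher library on both diets. The mean was 111.9 ± 31.7 in LPHS and 2307 ± 666 in HPLS (SD, n = 2 each). The change was -4.35 (SE 0.30, adjusted p = 0.00702 by limma), with -4.34 and -4.36 in the pairs. This call also held without the block (adjusted p = 0.0296) and was lost without LPHS S1 (0.11) or LPHS S2 (0.0575).

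**Figure D2:**
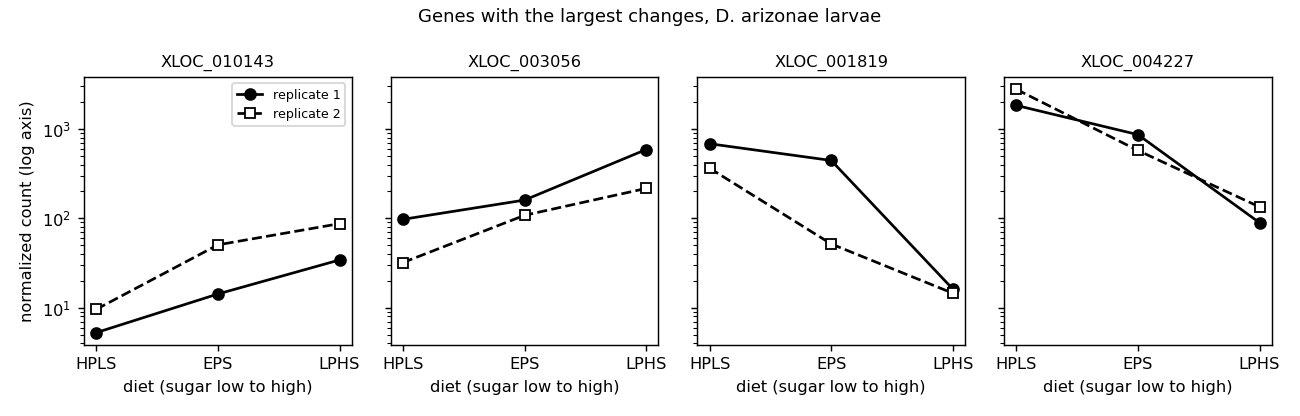
Normalized counts (log axis) of the 4 genes given by identifier in HPLS, EPS and LPHS larvae, with filled circles for S1 libraries and open squares for S2 libraries. XLOC_010143 and XLOC_003056 climb with sugar in both replicates, XLOC_001819 and XLOC_004227 drop, and XLOC_001819 in EPS is 444.3 in S1 and 51.8 in S2.

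The 32 rises ran from 1.01 to 2.77 on the log2 scale, and 9 of them exceeded 2. Their mean levels lay between 33.5 and 6147 normalized counts, with 9 genes over 1000. The rise of highest level, the tenth by size of change, had 9217 and 10649 normalized counts in LPHS and 2512 and 3244 in HPLS, a change of 1.79 (SE 0.15, adjusted p = 0.0146 by limma). The LPHS libraries of this gene lay far above the HPLS libraries. The rise next in level had 7182 and 6834 in LPHS and 1876 and 2210 in HPLS, with a change of 1.78 (SE 0.15). The LPHS and HPLS libraries did not overlap in 30 of the 32 rises.

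The change nearest 0 among the 46 falls was -0.99, and 16 of them were below -2. Their mean levels lay between 33.0 and 46916 normalized counts, with 20 genes over 1000. The 5 most abundant falls had mean levels of 13746 or more, above the mean level of every rise. The LPHS and HPLS libraries did not overlap in 45 of the 46 falls. Over all tested genes they did not overlap in 3438 (35.5%), 1812 with LPHS above and 1626 with LPHS below, and they did not in 75 of the 78 called genes, whose choice by the same libraries favors this.

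The most abundant fall had 16373 and 36949 normalized counts in LPHS and 39124 and 80440 in HPLS. The S2 library was the higher one on both diets, so LPHS S2 came close to HPLS S1, and the change of -1.19 was about the size of the difference between S2 and S1 (1.10). The fall next in abundance had 17036 and 15434 in LPHS and 47293 and 38682 in HPLS (-1.40), with both LPHS libraries well below. The fall after it in abundance had the change farthest from 0 among the 5, with 4328 and 5886 in LPHS and 35187 and 66706 in HPLS. Its change was -3.26 (SE 0.29, adjusted p = 0.0146 by limma). The other two genes of the 5 had 12988 and 12336 in LPHS and 37367 and 31304 in HPLS (-1.43), and 4519 and 8367 in LPHS and 16242 and 22745 in HPLS (-1.64).

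Besides XLOC_004227, the fit without the block called the falls with the fourth and the tenth largest changes. The first of these had 60.9 and 57.3 normalized counts in LPHS and 834.8 and 1366 in HPLS, a change of -4.15 (adjusted p = 0.0296 without the block and 0.00702 with it). The other had 109.5 and 124.9 in LPHS and 715.3 and 617.2 in HPLS, a change of -2.50 with the same adjusted p values. In each of these genes the replicates of a diet lay close together compared with the gap between the diets. By contrast, the fall with the fifth largest change had 33.3 and 54.8 in LPHS and 365.6 and 1040 in HPLS, with S2 the higher library on both diets. Its adjusted p was 0.00702 with the block and 0.326 without it.

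The called gene with the fitted change farthest from 0 was listed at 0 in both LPHS libraries, against 90.9 and 12.9 normalized counts in HPLS and 80.4 and 13.9 in EPS. The replicates on HPLS and EPS were far apart, and S1 was the higher one on each. No fold is given for it, since 0 in this table need not mean absence, as the abundant genes listed at 0 in single libraries show below. The median change of the falls stayed at -1.72 when this gene was set to a floor of 3 fragments per library in LPHS. Altogether 3 genes were at 0 in both LPHS libraries and above that floor in both HPLS libraries, and 7 genes were so the other way round, of which 2 were tested and 0 called by limma.

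Some of the called genes carry consecutive identifiers. There were 4 such pairs among 7 called genes, 3 of them with both genes lower in LPHS and 1 with opposite changes. Of the 8704 pairs of tested genes with consecutive numbers, 52.2% changed in the same direction. Whether the numbers follow the order of the genes in the genome is not given in the sources used here.

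The 46 falls together took 2.0% and 2.73% of the HPLS libraries, 1.64% and 1.94% of the EPS libraries, and 0.692% and 1.02% of the LPHS libraries. The 5 most abundant of them accounted for most of it, with 0.515% and 0.784% in LPHS and 1.5% and 2.06% in HPLS. The 32 rises took 0.139% and 0.155% in HPLS, 0.202% and 0.281% in EPS, and 0.445% and 0.516% in LPHS. These shares follow from the calls and are a description. In LPHS the falls still took a larger share than the rises. The 10 most abundant genes of the table took 13.5% and 14.6% of the LPHS libraries, against 14.9% and 17.1% of the HPLS libraries.

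**Figure D3:**
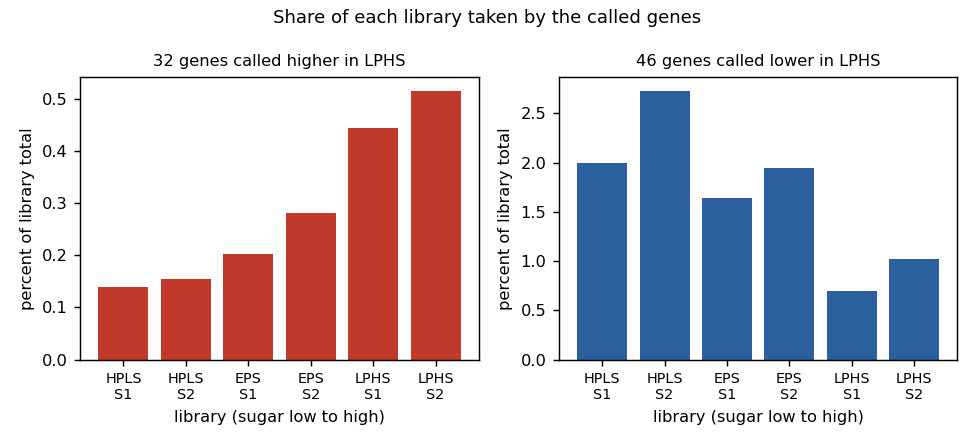
Percent of each *D*. *arizonae* library taken by the 32 genes called higher in LPHS (left) and the 46 called lower (right), with 1 bar per library and the diets in order of sugar. The left bars climb to 0.516% in LPHS S2, and the right bars drop to 0.692% in LPHS S1.

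The S1 and S2 pairs share no library, and each gives its own change. All 78 called genes changed in the same direction in both pairs, which the test favors, against 5642 (58.2%) of the tested genes. Rises had median changes of 1.55 in the S1 pair and 1.48 in the S2 pair, and no rise was below 0.905 in either pair. Falls had median changes of -1.72 and -1.80, and the smallest was 0.937 in size. The 2 changes of a called gene differed by a median of 0.272, against 0.384 over all tested genes, and by under 0.5 in 57 of the 78. The largest difference among called genes was 2.72, in the gene listed at 0 in both LPHS libraries. It comes from the gap between that gene's HPLS libraries, at 90.9 and 12.9 normalized counts. The test favors genes with small differences between the pairs. The change was larger in size in S2 than in S1 in 38 of the 78, and in 49.4% of the tested genes.

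Across all tested genes the changes in the 2 pairs had a Pearson correlation of 0.309 and a Spearman correlation of 0.272. These coefficients are over genes, which are not independent replicates, and each pair's values share their libraries. The median size of the change was 0.323 in S1 and 0.311 in S2. A change over 1 in both pairs was seen in 166 genes and under -1 in both in 111. In opposite directions 56 genes changed by over 1, with a median level of 16.9. None of these 56 was called, which their choice by opposite changes favors.

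**Figure D4:**
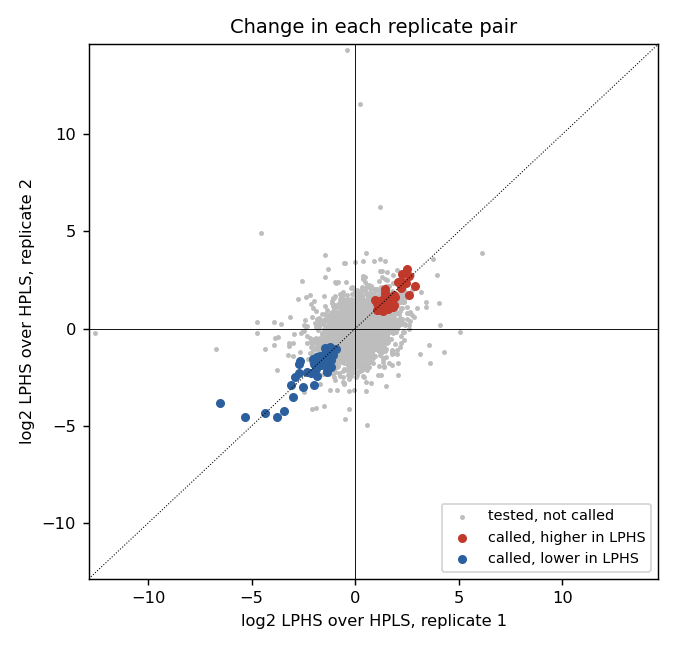
Change between LPHS and HPLS (log2) in the S1 pair (horizontal axis) and in the S2 pair (vertical axis), with 1 point per tested gene and the dotted line where both are equal. The red and blue called genes mostly lie along that line, which the test favors. Single grey points reach beyond 10 in size in 1 pair while near 0 in the other.

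By limma, S2 differed from S1 in 975 genes (10.1%), 445 of them higher in S2. This contrast uses all 6 libraries, and with the 4 HPLS and LPHS libraries alone it called 288 genes. It called 308 without EPS S1, 214 without EPS S2, 743 without LPHS S1, 614 without LPHS S2, 698 without HPLS S1 and 636 without HPLS S2. The replicate number took 52.2% of the variation of the tested genes over the 6 libraries, the diet 28.5% and the remainder 19.3%. These are shares of summed squares and are not adjusted for degrees of freedom, of which the replicate number has fewer than the other parts. For the called genes the shares were 17.3%, 79.3% and 3.4%, which the choice of the genes favors. The 78 included 27 genes (34.6%) that also differed between S2 and S1, 18 of them by over 2-fold. Both contrasts use the same residual spread of a gene, so the choice of the genes favors this overlap. Over the 78 genes the median size of the difference between S2 and S1 was 0.446, against 0.282 over all tested genes. The change with diet was larger than that between replicates in 75 of the 78, against 4456 (46%) of all tested genes, which the choice of the genes favors as well.

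The intermediate diet gives the course of each gene. The EPS mean lay between the HPLS and LPHS means in all 78 called genes, against 5177 (53.4%) of the tested genes. Within single replicates EPS lay between the other diets in 73 genes in S1, in 76 in S2 and in 71 (91%) in both, against 2579 (26.6%) of the tested genes in both. The diets share libraries in these counts, and large changes between the extremes leave more room for EPS between them, so the shares describe the genes and were not tested.

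Between HPLS and EPS, a median of 35.6% of the whole change was reached, with quartiles of 27.7% and 47.7%. The rises had reached a median of 46.1% and the falls 31.6%. The step between EPS and LPHS was the larger one in 42 of the 46 falls (91.3%), against 63.3% of all tested genes with a negative change, and in 21 of the 32 rises (65.6%), against 58.1% of those with a positive change. The median step between HPLS and EPS was 0.66 for rises and -0.58 for falls, and that between EPS and LPHS 0.82 and -1.18.

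Individual courses differed. XLOC_001819 had 683.7, 444.3 and 16.2 normalized counts in HPLS, EPS and LPHS in S1, and 364.1, 51.8 and 14.5 in S2, so most of its drop fell in the second step in S1 and in the first step in S2. XLOC_004227 had 1836, 864.4 and 89.5 in S1 and 2778, 575.1 and 134.3 in S2, with the larger step in the second in S1 and in the first in S2 on the log scale. XLOC_010143 had 5.27, 14.3 and 34.3 in S1 and 9.61, 50.6 and 87.3 in S2. XLOC_003056 had 97.5, 160.2 and 589.2 in S1 and 32.0, 108.2 and 216.4 in S2. The order of the diets was thus the same in both replicates for these 4 genes, and the size of each step was not.

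Neither step alone gave calls by limma. EPS and HPLS larvae differed in 0 genes (0%), with a smallest adjusted p of 1 and 331 genes at an unadjusted p under 0.05. LPHS and EPS larvae differed in 0 genes (0%), with a smallest adjusted p of 0.105 and 907 genes at an unadjusted p under 0.05. In these comparisons edgeR's quasi-likelihood test called 2 and 3 genes and DESeq2 called 12 and 96. The difference between the steps, a contrast chosen after the data had been seen and run in limma alone, also gave 0 calls (0%), a smallest adjusted p of 1 and 202 genes at an unadjusted p under 0.05. The larger second step of the falls is therefore a description of medians and not a tested difference.

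**Figure D5:**
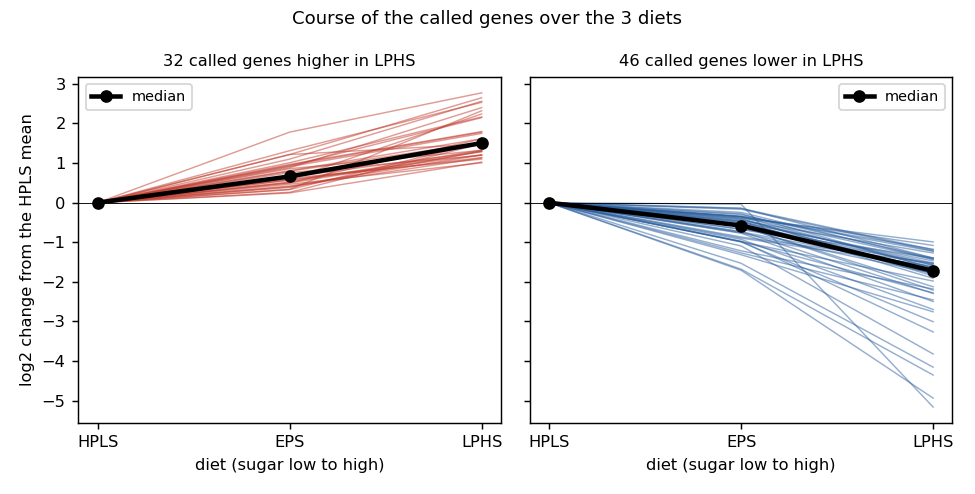
Change from the HPLS mean (log2) over HPLS, EPS and LPHS for the 32 genes called higher in LPHS (left) and the 46 called lower (right), with 1 thin line per gene and the median in black. The median of the rises is 0.66 at EPS, and the median of the falls is -0.58 at EPS.

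Calls were more frequent among abundant genes. Tested genes were ranked by mean level into 4 groups of 2424 genes. Calls numbered 2 (0.082%) in the lowest group, 16 (0.66%) and 19 (0.784%) in the next groups and 41 (1.69%) in the highest. The median standard error of the change was 0.389, 0.21, 0.173 and 0.166 in the same order. Among the genes not called, 530 had a change over 1 in size, 318 of them positive and 212 negative, and their median level was 27.3. For 6504 genes (67.1%) the 95% confidence interval of the change lay within -1 and 1.

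The largest fitted changes of all belonged to genes that were not called. They were chosen after their values were seen. The largest had 33117 and 20770 normalized counts in LPHS and 43114 and 0 in HPLS, with 39394 and 27449 in EPS, so that its fitted change of 6.98 (adjusted p = 0.344 by limma) came from 1 library listed at 0. The next had 0 and 6362 in LPHS and 6077 and 7565 in HPLS, with 0 and 6399 in EPS (-6.41, adjusted p = 0.298). The one after that had 2212 and 3025 in LPHS and 1890 and 0 in HPLS (5.90, adjusted p = 0.292). In the replicate pair without a 0, the changes of these genes were -0.38, -0.25 and 0.23. Of the 1596 tested genes with a mean level over 1000, 7 were listed at 0 in at least 1 library and none of the 7 was called.

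A different case was the gene with the ninth largest change among those not called. It had 3612 and 3443 normalized counts in LPHS and 15579 and 60661 in HPLS, with 7086 and 38795 in EPS. Both LPHS libraries were low and near each other, whereas S2 was far above S1 on HPLS and on EPS. The change was -3.12 (SE 0.55, adjusted p = 0.0599 by limma), with -2.11 in the S1 pair and -4.14 in the S2 pair, and so just missed the threshold.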

How the data were processed

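The authors mapped read pairs with TopHat2 and Bowtie2 to the first genome release of *D*. *arizonae*, assembled genes with Cufflinks, and ran Cuffdiff at its default settings, as the methods and the submitters' processing notes state. The deposited unit is signal, 1 value per gene and library, which for most genes is a fragment count multiplied by 1 step per library. For every library the step was sought between 0.5 and 1.5, with a tolerance of 0.01 steps, and division by it gave the fragments. In *D*. *arizonae* 8371 genes had whole multiples in all 6 libraries, 7122 of the tested genes (73.5%) and 63 of the called genes. What made the other values not whole was not tested. In the *D*. *mojavensis* table, where 100.0% of the values came out whole, edgeR's quasi-likelihood test called 549 genes between LPHS and HPLS with the replicate block and 0 without it (993 at an unadjusted p under 0.05). The authors' own fold changes and p-values were not used.

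The main test was limma (version 3.58.1) with a variance trend on the log2 of the TMM-scaled value plus a pseudocount of 1, which understates the change of low genes. The filter was filterByExpr with a minimum of 10 (edgeR version 4.0.16). The 6 *D*. *arizonae* libraries were fitted with diet and replicate number, leaving 2 residual degrees of freedom. The comparison is defined as paired by that number. Deviations of same-numbered libraries from their diet means correlated at 0.551 to 0.623 in each of the 3 pairs of diets. A gene was called where its Benjamini-Hochberg adjusted p did not exceed 0.05. An exact permutation test of 2 against 2 libraries that ignores the pairing cannot go below 0.333 and was not used. The 18 other settings tried included DESeq2 (version 1.42.0), with fragments rounded to whole numbers. The tests were tested on simulated data. R was 4.3.3 and Python 3.11.15 (numpy 2.4.6, pandas 2.3.3, scipy 1.17.1, matplotlib 3.10.9).

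The comparison, the members and the rule for named genes were chosen with earlier results of these data known. The rule printed 2 identifiers that rose and 2 that fell, those with the largest changes among called genes that changed in the same direction in both pairs and were above 0 in all 6 libraries. Other genes were given by rank.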

Additional observations from a re-analysis of the deposited data

Results flagged for a closer look

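Of the 9696 tested genes, 56 changed by over 1 on the log2 scale between LPHS and HPLS in opposite directions in the 2 replicate pairs. Of these, 36 had a positive change in S1 and a negative one in S2, and 20 the reverse. Their median level was 16.9 normalized counts. None was called, which their choice by opposite changes favors. The difference between the pairs was not tested, since each pair holds 1 library per diet.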

How the results depend on the processing

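All 78 called genes that were tested under an alternative kept their direction there. The choice of the genes by the same libraries favors this, and limma without the block gives each gene the same change as with it. Of the 78, 58 (21 higher and 37 lower in LPHS) were called in each of 8 alternatives with the replicate block and all 6 libraries. Another, with whole multiples only, called 96 genes, 63 of them among the 78. The pairing by replicate number decided most calls: without the replicate block limma called 3 genes, 0 higher and 3 lower, all 3 with EPS between the other diets, and edgeR's quasi-likelihood test without the block called 0 genes, 0 higher and 0 lower (smallest adjusted p 0.0633, 778 genes at an unadjusted p under 0.05). With the block the quasi-likelihood test called 121 genes, 58 of them higher, and DESeq2 called 388, of which 142 were higher and 246 lower. In EPS against HPLS these tests called 2 and 12 genes, and in LPHS against EPS 3 and 96. With the HPLS and LPHS libraries alone there were 134 calls (52 higher, 82 lower) and 288 between S2 and S1. Genes higher in LPHS numbered 50 with a pseudocount of 5, 21 with no filter and 51 with a minimum of 50. Other scalings gave 90 calls. When a library was left out, calls lay between 0 (without LPHS S2; 2 without LPHS S1) and 165 (without HPLS S1), with 0 to 64 higher (64 without EPS S1) and 0 to 118 lower (118 without HPLS S1). The same omissions gave 0 to 4 calls for EPS against HPLS, 0 to 15 for LPHS against EPS and 214 to 743 between S2 and S1. These fits assume that a lone library of a diet varies like the others. The median standard error of the change was 0.389 in the group of genes of lowest level and 0.166 in that of highest level. The part of depth in this was not tested.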
